A study of Mus musculus with 6 samples.

Results

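The cluster of miR-191 and miR-425 is a pair of microRNA (miRNA) genes, Mir191 and Mir425, that lie side by side on mouse chromosome 9. Both arms of each hairpin were taken by name from the deposited table, which gave 4 members, mmu-miR-191-5p, mmu-miR-191-3p, mmu-miR-425-5p and mmu-miR-425-3p, of 1182 features. The mouse prefix is left out below. All 4 passed the filter on low counts, as did 541 features in all. The libraries are small RNA from the brain cortex of adult males, 3 from Fmr1 knockout (KO) mice and 3 from wild-type (WT) mice by their labels, untreated and matched in age. Fmr1 encodes FMRP, an RNA-binding protein of neurons that restrains translation. The labels give neither the allele nor the strain, and a table of miRNAs does not measure Fmr1 itself. They call the replicates biological without tying each library to an animal, so the errors below are the spread between these libraries.

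A miRNA hairpin is cut to a short duplex whose strands are named 5p and 3p after their arm. The strand that Argonaute keeps, the guide, pairs with messenger RNAs mainly through its seed, bases 2 to 8. Hairpins that lie close together on a strand are commonly cut from a shared primary transcript, and their mature products can still differ in level through processing and stability. The pair is expressed in many tissues. In blood and tumour studies miR-191-5p is often used as a reference miRNA, and in rodent neurons it has been linked to the remodelling of dendritic spines.

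The mature sequences are shown because the seed sets which messages each member can pair with, and because the arms of a hairpin differ in seed. They are RefSeq sequences placed on GRCm38.p6, the assembly of the mm10 build that the submitters' processing notes name, and all lie on the plus strand. Capitals mark the seed.
miR-191-5p: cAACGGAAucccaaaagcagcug
miR-191-3p: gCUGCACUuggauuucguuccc
miR-425-5p: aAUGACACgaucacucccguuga
miR-425-3p: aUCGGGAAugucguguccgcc
The mature miRNAs are 23, 22, 23 and 21 bases long in that order, and all 4 seeds differ. Among 1679 mature mouse miRNAs in the RefSeq table, the seed of miR-425-5p was shared by 1 other, miR-489-3p of chromosome 6 (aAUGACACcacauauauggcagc). The seeds of the other members were shared by none. In cortex miR-489-3p had 4 reads over the 6 libraries together and did not reach the count filter.

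The hairpins are shown with both mature arms in capitals, since the comparison of arms below rests on them.
Mir191: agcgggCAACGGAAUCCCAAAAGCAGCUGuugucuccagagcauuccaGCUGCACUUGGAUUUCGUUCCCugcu
Mir425: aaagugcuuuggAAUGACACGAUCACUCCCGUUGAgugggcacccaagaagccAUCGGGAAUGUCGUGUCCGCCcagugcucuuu
Mir191 spans chr9:108568319-108568392 and Mir425 spans chr9:108568777-108568861, with 384 bases between them. In the GENCODE annotation of GRCm38, both hairpins lie wholly within an exon of the long noncoding RNA gene 4833445I07Rik (108567533 to 108569174, plus strand). The protein-coding gene Dalrd3 starts 1024 bases after Mir425 on the same strand, and Ndufaf3, on the minus strand, lies 884 bases before Mir191. A minus-strand miRNA gene without a miRBase name, Gm24083 (108568295 to 108568414), covers the Mir191 hairpin. Because the use of strand in counting is not given in the sources used here, reads of the opposite strand cannot be told apart from those of Mir191.

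The libraries held 11182888 to 15733876 miRNA reads. Levels are read counts scaled to a common library total (CPM) after TMM scaling, a correction for library composition, with factors from 0.8265 to 1.092. The lowest factor belonged to KO replicate 2, in which miR-9-5p took 26.1% of reads, against 20.0% to 24.8% in the other KO libraries and 21.4% to 22.0% in WT. The KO libraries also varied more among themselves, with a median SD of log2 CPM over the tested miRNAs of 0.41 in KO and 0.14 in WT. Neuronal markers (6 miRNAs, among them miR-124-3p) summed to 118400 to 140200 CPM in KO cortex and 129500 to 142500 CPM in WT cortex.

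The members covered a wide range of levels, and 1 arm supplied nearly all reads of each hairpin. By mean CPM over the 6 libraries, miR-191-5p ranked 61 of the 541 tested features at 878.4 CPM and miR-425-5p ranked 141 at 113.7 CPM. The 3p arms were far lower, with miR-425-3p at 6.24 CPM and miR-191-3p at 3.45 CPM. The order was the same in 6 of 6 libraries. Within libraries, miR-191-5p had on average 7.73 times the reads of miR-425-5p (mean log2 difference 2.95 ± 0.49, SD, n = 6). That SD spans both genotypes, whose ratios lay apart, at 5.35 to 6.22 in KO and 9.82 to 11.1 in WT. The next step, miR-425-5p over miR-425-3p, was 18.2-fold (4.18 ± 0.29), and miR-425-3p exceeded miR-191-3p 1.81-fold (0.85 ± 0.18). Each step passed an exact two-sided permutation test over the 6 libraries, which flips the sign of each library's difference (p = 0.03125, the smallest it can give, and 0.03125 when adjusted over the 3 pairs). The 3 pairs are the neighbouring ones of the order found. With that order in 6 of 6 libraries the test could give no other p, so it adds nothing to the order itself. These are folds of reads of miRNAs of similar length, and the capture of different sequences was not calibrated.

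The cluster was chosen with its KO and WT values known, in particular the lower level of miR-191-5p in KO. The KO and WT values of all members are therefore given as a description, and no p-value is given for a single member. In these libraries the abundant arms of the neighbouring hairpins lay on opposite sides of WT, with miR-191-5p lower and miR-425-5p higher in KO, and the 3p arms near WT.

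For miR-191-5p the libraries held 768.5, 718.1 and 744.1 CPM in KO cortex, against 969.1, 1006 and 1064 CPM in WT cortex. Every KO library lay below every WT library, and the KO libraries differed from each other by less than their distance from WT. The means were 743.6 ± 25.2 CPM in KO cortex and 1013 ± 48.1 CPM in WT cortex (SD, n = 3 each), a log2 fold change of -0.45 (SE 0.14), or 0.734-fold. Of the other 540 tested features, 45 had a lower log2 fold change and 495 a higher one. The raw counts behind these levels were 8538 to 11260 reads in KO and 13667 to 16184 reads in WT, so counting error was below the spread between libraries.

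For miR-425-5p the levels were 123.6, 129.5 and 139.1 CPM in KO cortex, against 98.7, 90.4 and 100.8 CPM in WT cortex. Here every KO library lay above every WT library. The means were 130.8 ± 7.84 CPM in KO cortex and 96.6 ± 5.48 CPM in WT cortex (SD, n = 3 each), a log2 fold change of 0.44 (SE 0.18), or 1.35-fold. A higher log2 fold change was found for 79 of the other 540 tested features.

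The 3p arms, usually the discarded passenger strands of these hairpins, lay nearer to WT, on far fewer reads. Levels of miR-191-3p were 2.94, 3.20 and 3.87 CPM in KO cortex and 3.02, 3.98 and 3.68 CPM in WT cortex, with overlapping groups and a log2 fold change of -0.09 (SE 0.26). Levels of miR-425-3p were 5.26, 5.64 and 8.08 CPM in KO cortex and 6.29, 6.33 and 5.85 CPM in WT cortex. Its groups overlapped as well, with a log2 fold change of 0.04 (SE 0.24), and KO replicate 3 stood above the other 5 libraries. These arms rest on 38 to 98 reads per library, and the SD of log2 CPM of miR-425-3p was 0.33 in KO and 0.06 in WT. With SEs of 0.26 and 0.24, differences of the size seen in the 5p arms could not be resolved for them. The direction of either 3p arm turned when single libraries were left out: miR-191-3p stood at 0.01 without KO replicate 1 and 0.02 without WT replicate 2, and miR-425-3p at -0.16 without KO replicate 3.

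**Figure D1:**
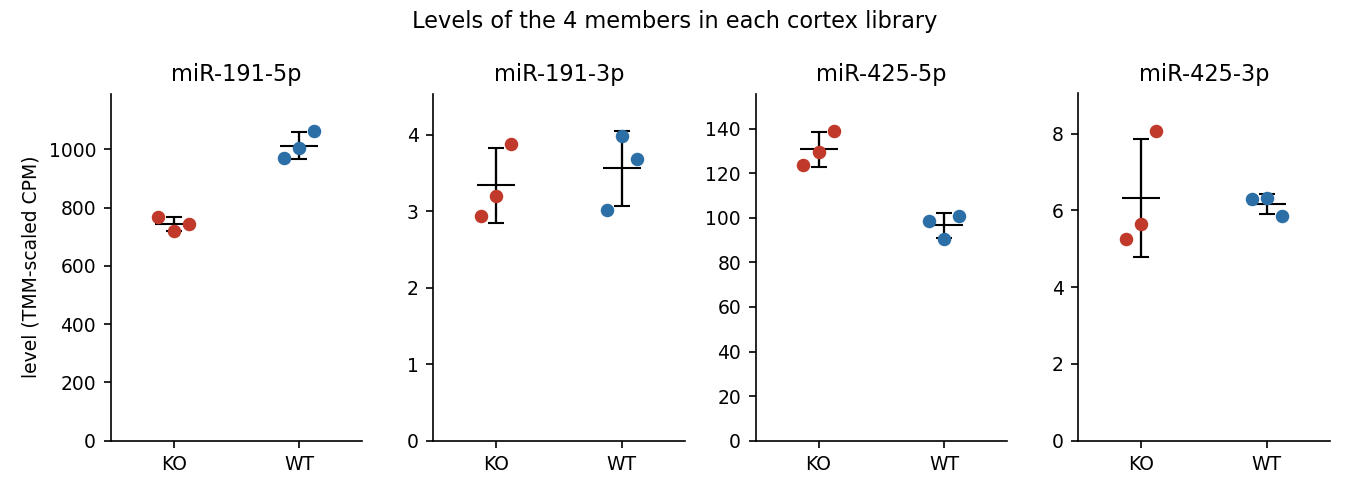
Level of each member in TMM-scaled CPM (vertical axes start at 0 and differ between panels) in the 3 KO and 3 WT libraries; points are libraries, the wide bar is the mean and the error bar the SD. The KO points of miR-191-5p lie at 718.1 to 768.5 CPM, below all WT points, those of miR-425-5p at 123.6 to 139.1 CPM, above all WT points, and the groups of both 3p arms overlap.

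No member passed an adjusted p of 0.05 in the edgeR quasi-likelihood test across all features (0 of 4, where 0% of the 541 tested passed). DESeq2 and limma-voom also called 0. At an unadjusted p under 0.05 there were 35 of 541 features (6.47%), and 2 of 4 members, a number that ran from 0 to 2 over the other scalings, filters, tools and left-out libraries. Groups did not overlap, with KO lower, for 1 of 4 members (57 of 541 features, 10.5%), and with KO higher for 1 of 4 (28 of 541, 5.18%). Without KO replicate 3, 18 of 560 features passed an adjusted p of 0.05 (3.21%), 1 of them a member. Since the members were chosen on this contrast, nothing is read from any of these counts.

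The 5p arms were also compared by their ratio within a library, which needs no scaling between libraries. The ratio alone does not show which arm differs from WT, so the opposite directions rest on the scaled levels above. There were 6.22, 5.54 and 5.35 reads of miR-191-5p per read of miR-425-5p in KO, against 9.82, 11.1 and 10.6 in WT. The highest KO library lay well below the lowest WT library. The mean ratio was 5.70 ± 0.456 in KO cortex and 10.5 ± 0.658 in WT cortex (SD, n = 3 each), 0.543-fold, or a log2 difference of -0.88. With any single library left out this difference stayed between -0.95 and -0.84. Because miR-191-5p is the far larger of the pair, the summed level of all 4 members followed it, at 884 ± 23.9 CPM in KO cortex and 1120 ± 50.04 CPM in WT cortex. The share of miR-191-5p in that sum was 84.1% ± 1.14 in KO and 90.5% ± 0.476 in WT.

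The shares of the arms were compared within each hairpin. For the miR-191 hairpin the 3p arm supplied 0.380%, 0.443% and 0.518% of reads in KO and 0.310%, 0.394% and 0.345% in WT, and the groups overlapped. The exact (Clopper-Pearson) 95% interval of the highest value, in KO replicate 3, ran from 0.381% to 0.688%, and that of the lowest, in WT replicate 1, from 0.227% to 0.413%. For the miR-425 hairpin the 3p share was 4.08%, 4.17% and 5.49% in KO and 5.99%, 6.54% and 5.49% in WT. The highest KO and the lowest WT library thus met at the same value, with intervals of 4.48% to 6.65% and 4.43% to 6.71%. The mean 3p share of miR-425 was 4.58% ± 0.788 in KO cortex and 6.01% ± 0.527 in WT cortex (SD, n = 3 each). These intervals cover the counting error of reads only and not the spread between libraries. Reads are not unique molecules, so the intervals may be too narrow even for the error of counting molecules. The ratio of the 3p arms of the hairpins to each other, miR-425-3p over miR-191-3p, was 1.88 ± 0.179 in KO and 1.76 ± 0.286 in WT, with a log2 difference of 0.11. Taken the same way round, miR-425 over miR-191, the 5p arms differed by 0.88, and whether the arms differ in this was not tested.

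**Figure D2:**
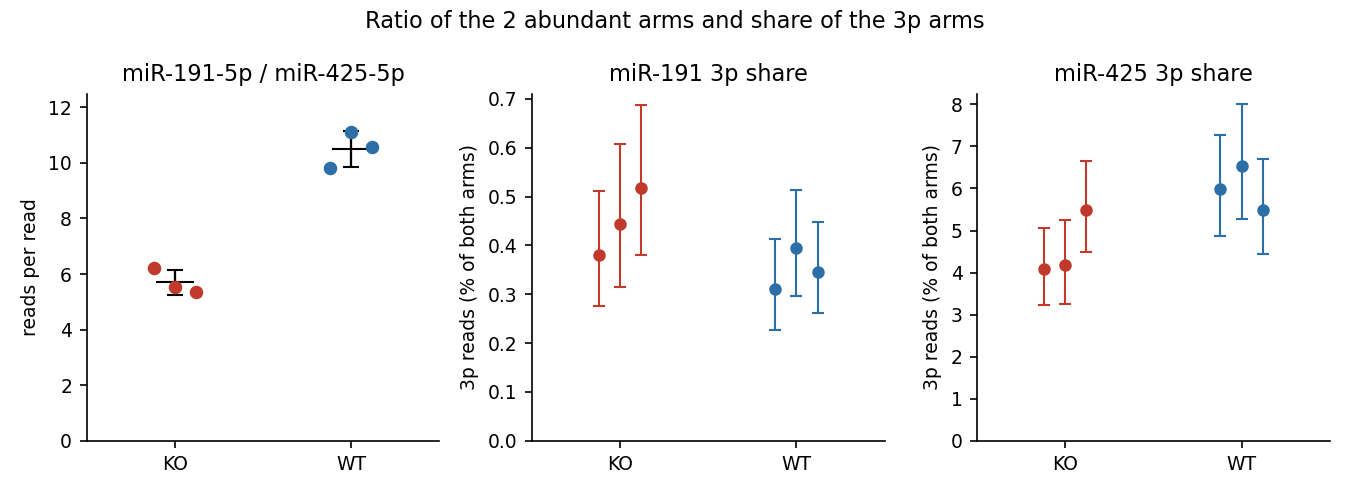
Left, reads of miR-191-5p per read of miR-425-5p in each KO and WT library with mean and SD; middle and right, 3p reads as a percentage of both arms of each hairpin, with exact 95% intervals for counting error. The ratio lies at 5.35 to 6.22 in KO and 9.82 to 11.1 in WT, while the 3p shares of the groups meet or overlap.

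To place this ratio, the same quantity was computed for neighbouring hairpins on 1 strand with at most 10000 bases between them. Only the 470 tested names that matched RefSeq mature miRNAs could be placed. The more abundant matched arm of each hairpin was used, so an unmatched arm was passed over. miRNAs placed at several hairpins were left out, though let-7a-5p, which also has a hairpin on chromosome 9, remained. This comparison was chosen after the values were seen. It gave 73 pairs, with a median absolute difference in log2 ratio of 0.38 between KO and WT. In 9 pairs the difference was larger than the 0.88 of miR-191-5p and miR-425-5p. Among the 21 pairs in which both miRNAs averaged at least 50 CPM, 1 pair had a larger one, miR-543-3p with miR-495-3p of the imprinted chromosome 12 cluster (-1.16), and the median was 0.33. The KO and WT ratios did not overlap for 25 of the 73 pairs (34.2%), and for 10 of the 21 pairs with both at 50 CPM or more. Separated ratios were thus not particular to miR-191-5p and miR-425-5p. Most of the 73 pairs, of the separated pairs and of those with a larger difference lay on chromosome 12. Successive pairs there often share a miRNA, so the pairs are not independent of each other.

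**Figure D3:**
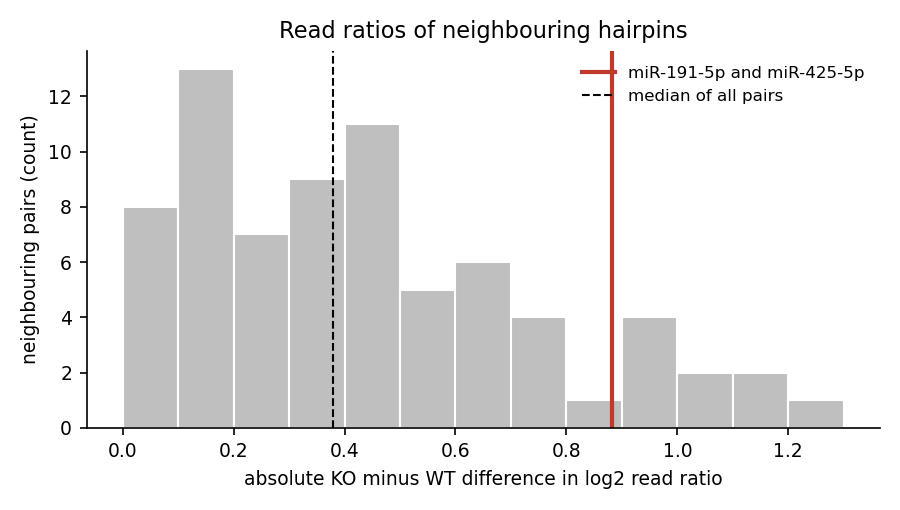
Histogram of the absolute KO minus WT difference in log2 read ratio for 73 pairs of neighbouring hairpins; the vertical axis counts pairs. The solid line marks miR-191-5p with miR-425-5p at 0.88, and the dashed line the median of all pairs at 0.38.

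Profiles over the 6 libraries were compared by the root-mean-square (RMS) distance between log2 CPM values, each miRNA centred on its own mean. The nearest to miR-191-5p was miR-7a-5p, a neuronal and endocrine miRNA, at a distance of 0.10 log2 units. It had 4980 ± 667 CPM in KO cortex and 6555 ± 367 CPM in WT cortex. Next came miR-339-5p (0.11), let-7b-5p of the let-7 differentiation family (0.11), the predicted miRNA novel_19 (0.12) and miR-185-5p (0.12). Of these, let-7b-5p had 1010 ± 35.6 CPM in KO cortex and 1212 ± 42.2 CPM in WT cortex, and miR-185-5p 199.9 ± 21.5 CPM in KO cortex and 248.1 ± 4.35 CPM in WT cortex. All 5 had negative log2 fold changes, from -0.40 for miR-7a-5p to -0.26 for let-7b-5p, which follows from the choice by likeness.

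The profile of miR-425-5p lay nearest to those of miR-30f (0.12), miR-708-3p (0.13) and miR-377-3p (0.13). Levels of miR-30f, annotated opposite the miR-30e hairpin, were 96.8 ± 10.3 CPM in KO cortex and 63.3 ± 1.47 CPM in WT cortex. Those of miR-708-3p were 1682 ± 174 CPM in KO cortex and 1286 ± 89.9 CPM in WT cortex. The genomic neighbour was not among the near profiles of either member. The distance between miR-191-5p and miR-425-5p was 0.45 log2 units, which placed miR-425-5p at 333 of 540 for miR-191-5p, beyond the median distance of 0.39. Each 5p arm was closer to both 3p arms than to the other 5p arm. For miR-191-5p the distances were 0.24 to miR-191-3p and 0.31 to miR-425-3p, and for miR-425-5p 0.27 to miR-425-3p and 0.31 to miR-191-3p. Distances and ranks among the members largely restate the KO and WT values that were known when the cluster was chosen. Nothing further is read from them.

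**Figure D4:**
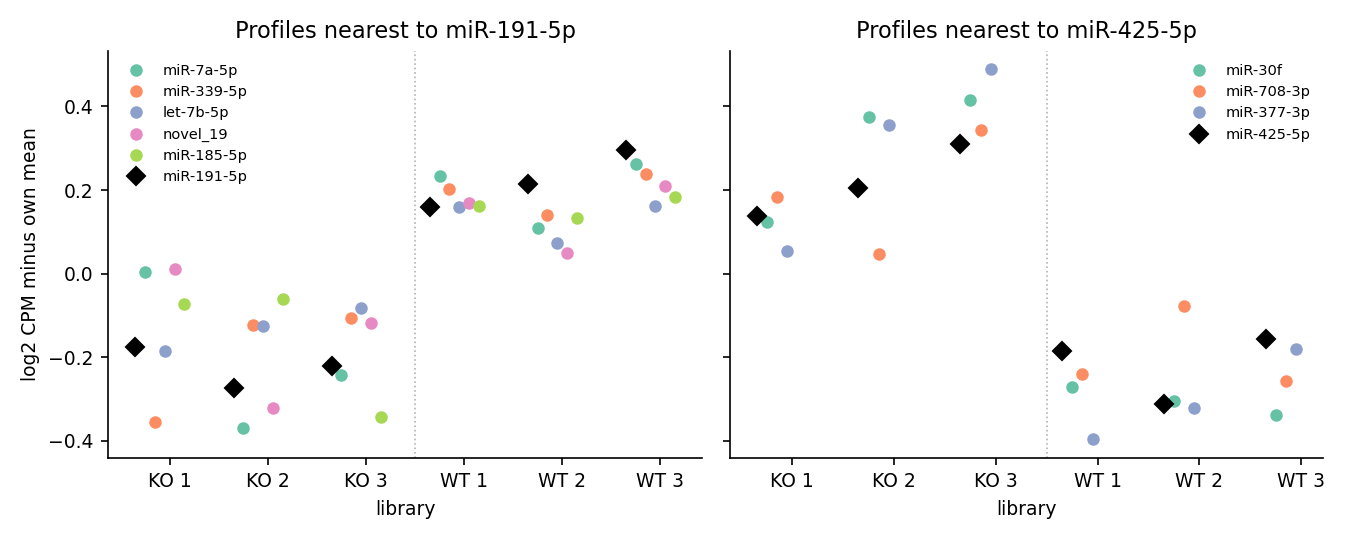
Log2 CPM minus each miRNA's own mean over the 6 libraries, for miR-191-5p with its 5 nearest profiles (left) and miR-425-5p with its 3 nearest (right); points are single libraries, and replicates have no order. All KO points of miR-191-5p are negative and all of miR-425-5p positive, and the WT points take the other side.

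A list of 10 miRNAs often used as references in PCR or arrays, which holds miR-191-5p and miR-425-5p, was described beside them. Of the 10, 7 had negative and 3 positive log2 fold changes, with a median of -0.32, against a median of 0.03 over all 541 tested features, and 0 passed an adjusted p of 0.05 (edgeR). The 2 members marked the ends of the list, but they were chosen with these values known, so nothing is read from that. The most abundant, miR-26a-5p, had 24100 ± 4877 CPM in KO cortex and 31940 ± 864 CPM in WT cortex (log2 fold change -0.41, SE 0.17). Levels of miR-24-3p were 5303 ± 276 CPM in KO cortex and 4746 ± 114 CPM in WT cortex (0.16, SE 0.13). For let-7a-5p they were 3552 ± 738 CPM in KO cortex and 4502 ± 159 CPM in WT cortex (-0.34, SE 0.18), and for miR-103-3p 942.5 ± 169 CPM in KO cortex and 1205 ± 17.9 CPM in WT cortex (-0.35, SE 0.17). Over all 6 libraries the coefficient of variation, the SD as a share of the mean, was 17.3% for miR-191-5p and 17.3% for miR-425-5p. In this list it ran from 7.14% for miR-24-3p, whose KO libraries all lay above its WT libraries, to 34.7% for miR-16-5p. Within WT it was 4.74% for miR-191-5p and 5.67% for miR-425-5p.

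**Figure D5:**
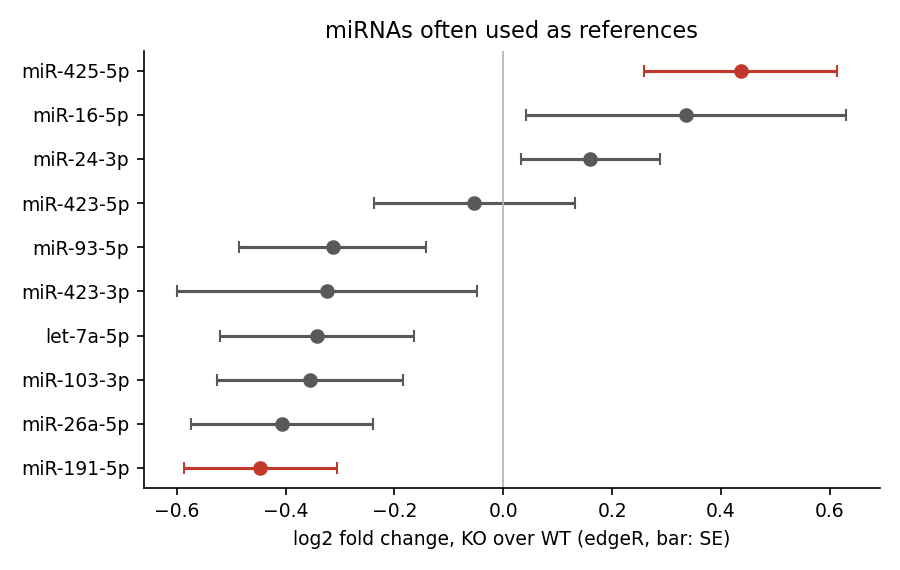
Log2 fold change, KO over WT, with its SE from the edgeR fit, for 10 miRNAs often used as references; members of the cluster are in red. The points run from -0.45 for miR-191-5p to 0.44 for miR-425-5p, with 7 below and 3 above 0.

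Among 10 miRNAs described in dendritic spine or synapse remodelling, miR-191-5p had the lowest log2 fold change. Because miR-191-5p was chosen with its lower KO level known, nothing is read from this rank. Of the list, 6 were positive and 4 negative, with a median of 0.03, and 0 passed an adjusted p of 0.05 (edgeR). Its most abundant members besides the very abundant miR-9-5p were miR-125b-5p, at 5287 ± 168 CPM in KO cortex and 6052 ± 236 CPM in WT cortex (log2 fold change -0.20, SE 0.13), and the neuronal miR-124-3p, at 1590 ± 459 CPM in KO cortex and 1745 ± 118 CPM in WT cortex (-0.13, SE 0.21). For miR-29a-3p the levels were 1502 ± 416 CPM in KO cortex and 1559 ± 112 CPM in WT cortex. For miR-135a-5p, linked like miR-191 to spine remodelling, they were 131.4, 169.4 and 644.3 CPM in KO cortex and 137.8, 128.5 and 116.1 CPM in WT cortex, so that KO replicate 3 stood far above the other 5 libraries.

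On chromosome 9 at large, only features with names matched to RefSeq mature miRNAs could be placed. Of the 41 such features with hairpins on that chromosome alone, 18 were tested, members included. Of these, 13 had positive and 5 negative log2 fold changes, with a median of 0.20, and 0 passed an adjusted p of 0.05 (edgeR). The nearest tested hairpins of the RefSeq table were far away. On 1 side, let-7g-5p, 2389391 bases before Mir191, had 13130 ± 5896 CPM in KO cortex and 17910 ± 533 CPM in WT cortex (log2 fold change -0.45, SE 0.32), with 1 KO library at 6517 CPM. On the other, miR-128-2-5p, 3549774 bases after Mir425 and on the minus strand, had 15.1 ± 3.52 CPM in KO cortex and 14.7 ± 0.955 CPM in WT cortex (0.05, SE 0.23).

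Markers of other cell types were summed for each library, since miR-191 and miR-425 are also expressed in blood cells. Microglia and leukocyte markers (5 in the table, 4 tested and all 4 with positive log2 fold changes) summed to 194.0 to 218.4 CPM in KO cortex and 169.9 to 180.4 CPM in WT cortex. Endothelial markers (2 of 2 positive) summed to 7656 to 8063 CPM in KO cortex and 7050 to 7626 CPM in WT cortex. With TMM scaling both sums were thus higher in every KO library than in every WT library, by a narrow margin for the endothelial one, as were 5.18% of single tested features. With total counts alone, chosen after the data were seen, both overlapped, at 180.5 to 236.4 CPM in KO libraries and 164.2 to 185.7 in WT for microglia and leukocytes, and 6327 to 8747 in KO and 7240 to 7370 in WT for endothelium. Their part in the levels of either member was not tested. Sums of the other lists overlapped between the genotypes under both scalings. Erythroid markers (3 of 4 positive) gave 80.3 to 120.6 CPM in KO cortex and 75.4 to 83.4 CPM in WT cortex, choroid plexus markers (2 tested of 3, both positive) 666 to 1624 CPM in KO cortex and 669.9 to 745.1 CPM in WT cortex, and oligodendrocyte markers (1 of 3 positive) 558.2 to 792.3 CPM in KO cortex and 769.3 to 880.0 CPM in WT cortex. Epithelial or olfactory markers (5 of 5 positive) ranged from 15.7 to 970.1 CPM in KO cortex and from 83.9 to 290.0 CPM in WT cortex, and 1 of the 5 was at 0 in a library. No marker of the other lists was at 0 in any library. In bulk tissue, fewer cells that express a miRNA and less of it per cell cannot be told apart.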

How the data were processed

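The authors deposited whole-number read counts per mature miRNA, per the file headers, and TPM values. The deposited TPM values equal count over column total scaled to a common sum, with no length term (largest deviation 4.9e-10), and were not tested. The submitters' processing notes list Bowtie, DESeq2 and mm10. For trimming, miRBase release, mismatches, multi-mapping and strand use, the settings were not given in the sources used here. Columns were matched to titles by number. Replicate numbers follow accession order and only name a library. Pairs of libraries of a genotype had chi-square values of at least 47.71 per degree of freedom, so none looked like a duplicate. No member was in the 14 pairs of features whose counts agreed within 3% in every library.

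Counts were fitted in R 4.3.3 with edgeR 4.0.16 (filterByExpr with a minimum count of 10, TMM, robust quasi-likelihood, Benjamini-Hochberg over 541 features). DESeq2 1.42.0 and limma 3.58.1 served as alternatives. Profiles were compared on log2 CPM, with values of 0 set to 0.03 CPM. Names of 970 features matched RefSeq mature miRNAs. Permutation tests used scipy 1.17.1. The members and lists were chosen with earlier results of these data known. Named were the members, miRNAs sharing a 5p seed, the 5 and 3 nearest profiles, the nearest hairpins and up to 4 miRNAs per list by mean CPM. Names outside that rule (miR-543-3p, miR-495-3p, miR-135a-5p) were chosen after their values were seen.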

Additional observations from a re-analysis of the deposited data

How the results depend on the processing

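The log2 fold changes of miR-191-5p and miR-425-5p kept their sign in all 13 alternatives each. They ranged from -0.45 to -0.42 and from 0.43 to 0.47 over other scalings, filters and tools, and from -0.49 to -0.40 and from 0.41 to 0.49 with a library left out. Those of the 3p arms, on 38 to 98 reads per library, ranged with a library left out from -0.21 to 0.02 for miR-191-3p, which changed sign without KO replicate 1 (0.00595) and WT replicate 2 (0.0198), and from -0.16 to 0.17 for miR-425-3p, which changed sign without KO replicate 3 (-0.16). The signs in the reference, spine and chromosome 9 lists were the same under all 3 other scalings. The number of miRNAs at an adjusted p under 0.05 was 0 except without KO replicate 3 (0 to 18 over left-out libraries). At an unadjusted p under 0.05 it was 18 with total counts alone and 56 of 1182 features without the filter, against 35 of 541, and 14 to 97 with a library left out. The cause was not tested. With 5 libraries the smallest exact p of the order of levels is 0.0625, so no left-out fit could pass, and the mean log2 differences were 2.85 to 3.06 (miR-191-5p over miR-425-5p), 4.11 to 4.25 (miR-425-5p over miR-425-3p) and 0.81 to 0.89 (miR-425-3p over miR-191-3p). No paired analysis was possible because the labels give no replicate numbers shared by the genotypes.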
